A study of Homo sapiens with 12 samples.

Results

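The complement and ficolin genes, 9 of the 58735 genes in the deposited table, were followed across the 12 libraries of the study. The list was drawn up by gene name, with earlier results of these data known: the secreted components CFP, FCN1 and CFD, the receptors CR1, C3AR1 and C5AR1, and the membrane regulators CD46, CD55 and CD59. All 9 passed the filter on low counts that kept 15060 genes for testing. The cells were OCI-AML2, an established human acute myeloid leukaemia line with a rearranged KMT2A gene. Every culture carried a lentiviral guide RNA: sgUTX_4 or sgUTX_2, both labelled as knockouts of UTX (KDM6A, a histone H3 demethylase), or sgLuc, the control guide, labelled wild type. Each was given 1 µM SGC0946, an inhibitor of the histone H3 methyltransferase DOT1L, or the vehicle DMSO, for 6 days. Each of the 6 combinations had 2 libraries. The labels do not say whether the cells were single clones or whether the 2 libraries came from separate cultures, so the p-values cover only how far these libraries vary, and that variation may be technical.

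Complement is a cascade of blood proteins that marks and lyses foreign or damaged cells. The classical and lectin pathways start it from bound antibody or from sugar patterns, the alternative pathway amplifies it, and all converge on cleavage of C3 and then C5. The small fragments C3a and C5a act on receptors of myeloid cells, and host cells carry membrane proteins that stop the cascade on their own surface. Myeloid cells make several of the components themselves, and monocytes and granulocytes carry most of the receptors.

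The libraries held between 15480493 and 23262141 counts. Levels are given as CPM (the usual RNA-seq unit that sets a gene's counts against the total of its library) after TMM scaling, which corrects for a few abundant genes taking up a library. KDM6A itself averaged 46 CPM in sgUTX_4, 15.2 CPM in sgUTX_2 and 34.8 CPM in sgLuc cells with SGC0946. With DMSO it averaged 47.8 CPM in sgUTX_4, 15.1 CPM in sgUTX_2 and 30 CPM in sgLuc cells, so the transcript lay below the control mean with sgUTX_2 and above it with sgUTX_4. A count over the whole gene does not show whether the cut disrupts the protein. Genes of ribosomal proteins took 11 to 13.1% of the counts in all libraries except the sgLuc libraries with DMSO, where they took 18.9 and 17.7%, and the part of that gap in the results was not tested. Among the markers of other cells, the erythroid genes HBA1, HBB and HBG1, the platelet genes PF4 and PPBP and the B-cell gene MS4A1 were at 0 in all libraries. Other markers on these lists were counted. Per library, the 7 lymphoid markers summed to 17.4 to 43.3 CPM and the 5 megakaryocyte markers to 4.65 to 20.5 CPM. The 5 stroma and epithelium markers summed to 2.19 to 13.3 CPM, and the 6 erythroid markers to at most 0.388 CPM.

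Per kilobase of exon, a scale (RPKM) on which genes can be set beside each other, CFD was the most abundant of the 9 transcripts in every arm. It averaged 279 ± 7.09 RPKM in sgUTX cells with SGC0946 (SD, n = 4), 341 ± 25.7 RPKM in control cells with SGC0946 (n = 2), 198 ± 33.8 RPKM in sgUTX cells with DMSO (n = 4) and 404 ± 10 RPKM in control cells with DMSO (n = 2). In control cells with DMSO the order below it was CD55 at 33.6 RPKM, CD46 at 29.2, C3AR1 at 12.1 and CR1 at 3.48, each apart from its neighbours in both libraries. CD59 at 1.21, C5AR1 at 1.09 and FCN1 at 0.787 RPKM followed, with each overlapping the next, and CFP was lowest at 0.433. SGC0946 changed this order in control cells: C3AR1 at 37.8 RPKM then overlapped CD46 at 36.4, FCN1 reached 26.4, CFP 25 and C5AR1 19.7, and CD59 was lowest at 2.6. In sgUTX cells with SGC0946 the order of the means was CFD, CD46 at 22.1, CD55 at 14.3 and C3AR1 at 6.42 RPKM. The remaining means lay between 4.88 RPKM for FCN1 and 0.454 RPKM for CR1. C3AR1, from 5.91 to 7.53 RPKM, overlapped FCN1, from 2.55 to 7.52 RPKM.

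**Figure D1:**
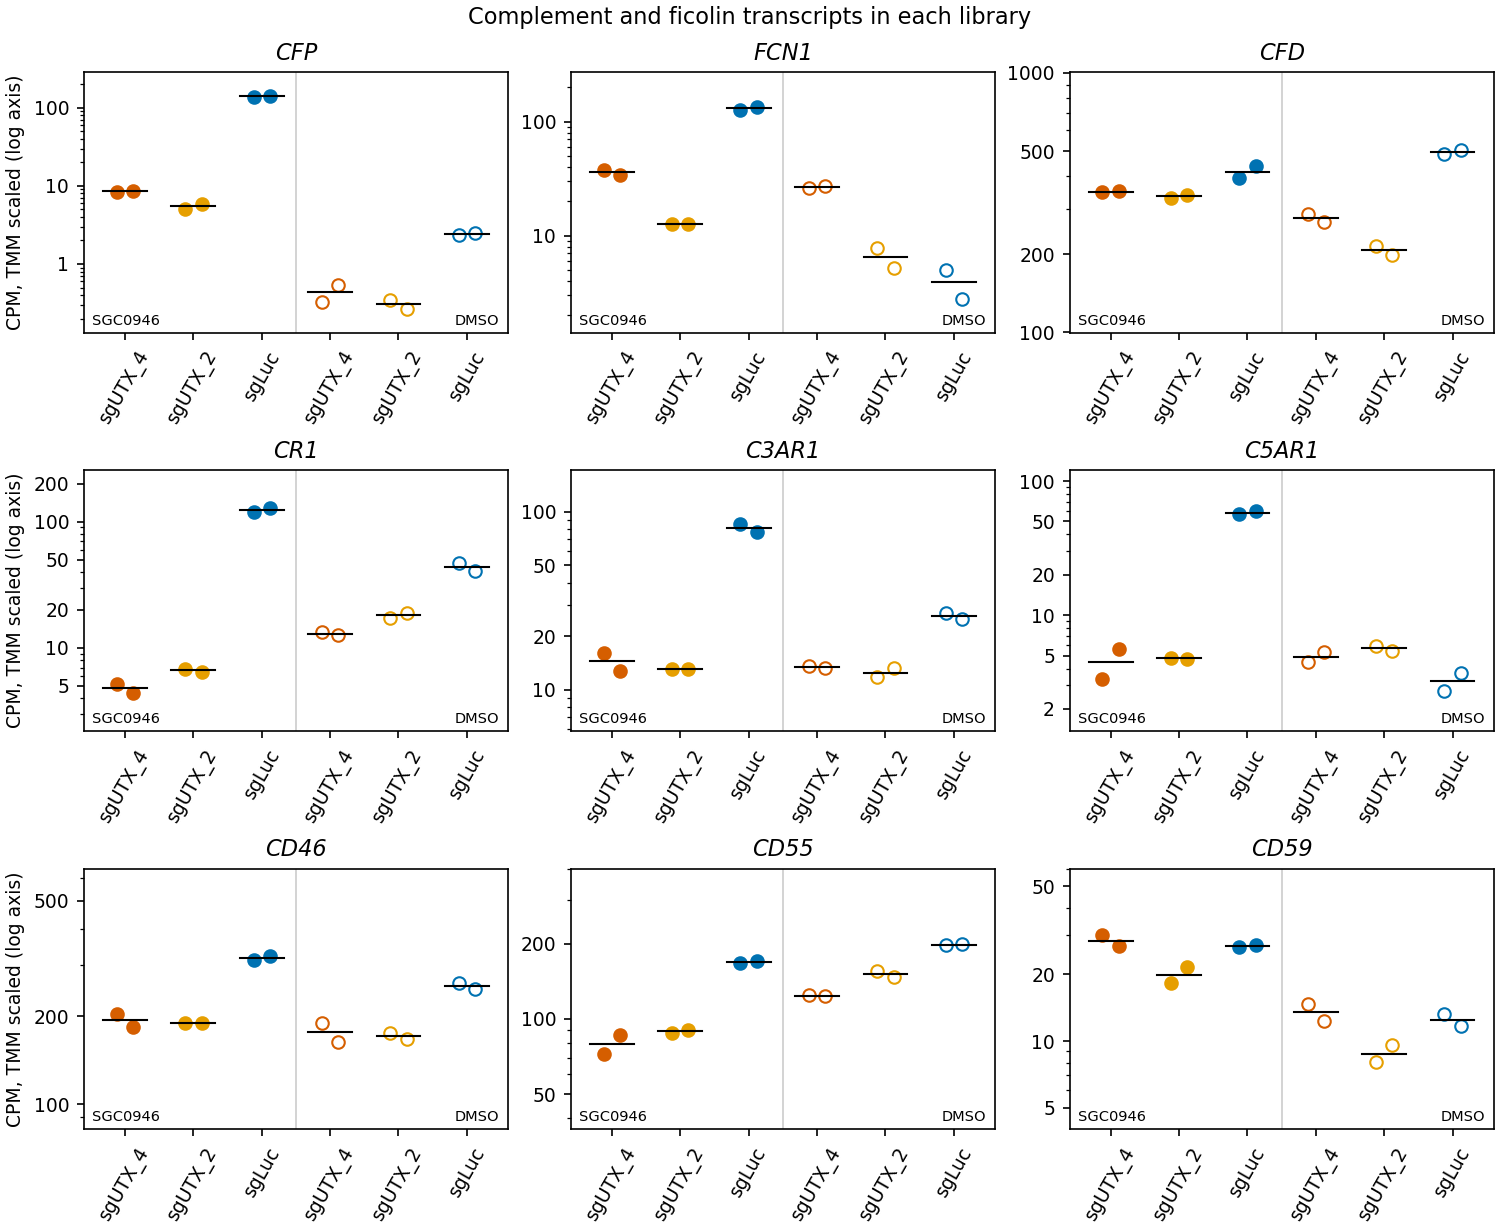
CPM after TMM scaling (log axis) of the 9 genes in each library, with SGC0946 on the left (filled points) and DMSO on the right (open points) and bars at the mean of 2 libraries; the scale differs between panels. CFP, FCN1, CR1, C3AR1, C5AR1 and CD46 were highest in the sgLuc libraries with SGC0946, for example 139 and 142 CPM for CFP.

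With SGC0946, 8 of the 9 transcripts were lower in sgUTX cells than in control cells and none was higher, where 56.9% of all genes tested were called in either direction, 27.7% higher and 29.3% lower. A gene was called at an adjusted p under 0.05 in edgeR's quasi-likelihood test over all 15060 genes. The median log2 fold change of the 9 was -2.46, against 0.01 over all genes tested. With DMSO, 6 of the 9 were lower and 1 was higher, where 61% of all genes were called, 28.7% higher and 32.3% lower; the median was -0.54 for the 9 and -0.01 for all genes. With so many genes called, a count of 7 of 9 by itself says little about these genes, and their single values follow by role.

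SGC0946 raised 7 of the 9 in control cells and lowered none, where 48.9% of all genes were called, 24.7% higher and 24.2% lower; the median was 1.49 for the 9 and 0.00 for all genes. In sgUTX cells it raised 4 and lowered 2, where 33.8% of all genes were called, 17.4% higher and 16.4% lower; the median was 0.14 for the 9 and 0.00 for all genes. The difference between these responses, sgUTX minus control, was called for 7 of the 9, 6 of them negative and 1 positive, where 34.8% of all genes were called, 18.3% higher and 16.5% lower. The comparisons share libraries, since the control libraries with SGC0946 and with DMSO each enter a comparison of genotypes and one of treatments, so they are given side by side and are not independent. Scaling by library size alone moved the median of all genes to 0.20 for sgUTX against control in SGC0946 and 0.26 in DMSO, and then 65% and 66.7% of the called genes were higher, against 48.6% and 47.1% with TMM; the members' counts became 7 lower and none higher in SGC0946 and stayed at 6 lower and 1 higher in DMSO.

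The summed level of 12 monocyte and macrophage markers differed between the arms too. It was 4100 to 6930 CPM in sgUTX cells with SGC0946, 17000 to 17600 CPM in control cells with SGC0946, 808 to 2010 CPM in sgUTX cells with DMSO and 1640 to 1790 CPM in control cells with DMSO. LYZ and S100A9, named after their values were seen, made up most of the sum in every arm. In control cells with SGC0946 they had 9250 to 9450 and 6570 to 6980 CPM. Of the 9 markers tested, all 9 were lower in sgUTX cells with SGC0946 (median log2 fold change -3.78). With DMSO 5 were lower and none higher (-1.33), although the sums overlapped. SGC0946 raised 8 and lowered 1 in control cells (3.73), and it raised 5 and lowered 1 in sgUTX cells (2.26). The percentages of genes called in each of these comparisons were printed above. MRC1 was at 0 in the sgUTX libraries with DMSO. The 10 neutrophil granule markers summed to 3910 to 5430 CPM in sgUTX and 3290 to 3370 CPM in control cells with SGC0946, and to 2220 to 3650 CPM in sgUTX and 3290 to 3320 CPM in control cells with DMSO. AZU1, PRTN3 and ELANE, proteins of the primary granules named after their values were seen, made up most of these sums. Of the 10 markers, 5 were lower and 2 higher in sgUTX than in control cells with SGC0946 (median log2 fold change -0.03). With DMSO 4 were lower and 2 higher (0.36), and the shares of all genes are those given above for each treatment. FCGR3B, a receptor of mature neutrophils also named after its values were seen, had 1.27 to 2.61 CPM in sgUTX and 107 to 116 CPM in control cells with SGC0946. Other markers of this list went the opposite way with SGC0946. ELANE had 368 to 631 CPM in sgUTX and 94 to 106 CPM in control cells. PRTN3 had 893 to 1510 CPM in sgUTX and 363 to 390 CPM in control cells. The part of both lists in the changes of the complement genes was not tested, and in bulk RNA fewer cells of a type and less RNA per cell cannot be told apart.

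CFP (ENSG00000126759, chrX:47623172-47630305, minus strand) encodes properdin, which stabilises the C3-cleaving enzyme of the alternative pathway. With SGC0946 it had 8.44 and 8.64 CPM in sgUTX_4 libraries, 5.08 and 5.87 CPM in sgUTX_2 libraries and 139 and 142 CPM in sgLuc libraries. With DMSO it had 0.331 and 0.54 CPM in sgUTX_4, 0.344 and 0.263 CPM in sgUTX_2 and 2.36 and 2.5 CPM in sgLuc libraries. The control libraries lay above every sgUTX library in both treatments, and the SGC0946 libraries lay above every DMSO library of the same genotype. The DMSO levels in sgUTX cells rest on 6 to 10 reads per library, and those in control cells on 38 and 33.

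In control cells SGC0946 raised CFP 57.7-fold (log2 fold change 5.85 ± 0.21 SE, adjusted p = 1.01e-13). In sgUTX cells it raised it 18.7-fold (4.23 ± 0.25, adjusted p = 1.95e-10), and the responses differed by -1.62 ± 0.46 (adjusted p = 0.0105). That difference missed the threshold without the second sgUTX_4 library with DMSO (-1.40, adjusted p = 0.0539). CFP was 20.3-fold lower in sgUTX than in control cells with SGC0946 (-4.34 ± 0.13, adjusted p = 3.91e-15) and 6.57-fold lower with DMSO (-2.72 ± 0.38, adjusted p = 5.4e-06). CFP thus rose with the inhibitor in either genotype, and sgUTX cells with SGC0946, at a mean of 7.01 ± 1.8 CPM (SD, n = 4), stood between the control cells with SGC0946 at 140 ± 1.71 CPM and those with DMSO at 2.43 ± 0.0946 CPM (n = 2 each). The annotation gives CFP 6.02% of its exonic bases in common with the clone-named AL009172.2.

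FCN1 (ENSG00000085265, chr9:134905890-134917963, minus strand) encodes M-ficolin, a sugar-binding protein of monocytes and granulocytes that starts the lectin pathway. Its level with SGC0946 was 37.5 and 34.4 CPM in sgUTX_4, 12.7 and 12.7 CPM in sgUTX_2 and 127 and 136 CPM in sgLuc libraries. Its level with DMSO was 26.2 and 27.1 CPM in sgUTX_4, 7.71 and 5.22 CPM in sgUTX_2 and 5.04 and 2.8 CPM in sgLuc libraries. The guides stood apart from each other in both treatments. All sgUTX libraries lay below the control with SGC0946 and above it with DMSO, although in DMSO the second sgUTX_2 library at 5.22 CPM was close to the first sgLuc library at 5.04 CPM.

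FCN1 rose 32.8-fold with SGC0946 in control cells (log2 fold change 5.04 ± 1.02 SE, adjusted p = 0.0034). In sgUTX cells, with both guides pooled, the change of 0.56 ± 0.60 was not called (adjusted p = 0.538). Fitted with a mean for each guide, it rose by 0.43 ± 0.12 in sgUTX_4 cells (adjusted p = 0.00946) and by 0.98 ± 0.16 in sgUTX_2 cells (adjusted p = 4.08e-05). The pooled fit counts the gap between guides as error, which widens the standard errors of this gene above those of the others.

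Between genotypes FCN1 was 5.51-fold lower in sgUTX than in control cells with SGC0946 (-2.46 ± 0.63, adjusted p = 0.0096). With DMSO the pooled log2 difference was 2.02 ± 1.04 and was not called (adjusted p = 0.126), while single guides against sgLuc gave 2.73 ± 0.17 for sgUTX_4 (adjusted p = 5.62e-12) and 0.68 ± 0.21 for sgUTX_2 (adjusted p = 0.00819), both higher. The DESeq2 Wald test, an alternative, called the pooled difference with DMSO higher in sgUTX cells (2.07, adjusted p = 0.0123). In edgeR the responses of sgUTX and control cells differed by -4.48 ± 1.20 (adjusted p = 0.0199). This call was lost without the first sgLuc library with DMSO (-4.99, adjusted p = 0.0713), the second (-4.14, adjusted p = 0.0911) or the second sgLuc library with SGC0946 (-4.43, adjusted p = 0.051), whereas the guide-wise fit called it for sgUTX_4 (-4.60 ± 0.20, adjusted p = 1.15e-13) and for sgUTX_2 (-4.05 ± 0.24, adjusted p = 1.35e-11).

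CFD (ENSG00000197766, chr19:859643-863630, plus strand) encodes factor D, the serine protease that cleaves factor B to form the alternative-pathway enzyme. In cells given SGC0946 it had 347 and 350 CPM in sgUTX_4, 330 and 339 CPM in sgUTX_2 and 394 and 439 CPM in sgLuc libraries. In cells given DMSO it had 287 and 266 CPM in sgUTX_4, 216 and 199 CPM in sgUTX_2 and 485 and 503 CPM in sgLuc libraries. The control libraries were above every sgUTX library in both treatments, by a wider gap with DMSO.

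CFD was 2.04-fold lower in sgUTX than in control cells with DMSO (log2 fold change -1.03 ± 0.11 SE, adjusted p = 2.98e-06). With SGC0946 the log2 difference was -0.29 ± 0.11 (adjusted p = 0.0473), a call that was lost under library-size scaling (-0.10, adjusted p = 0.456), without either sgLuc library with SGC0946 (-0.36 and -0.21, adjusted p = 0.0574 and 0.285), without either sgLuc library with DMSO (adjusted p = 0.0641 and 0.0643) and without any 1 of the 4 treated sgUTX libraries (adjusted p from 0.0641 to 0.103). SGC0946 raised CFD in sgUTX cells (0.50 ± 0.09, adjusted p = 0.00115), and the change in control cells of -0.25 ± 0.13 was not called (adjusted p = 0.148). CFD was the only one of the 9 whose difference of responses was called positive (0.74 ± 0.16, adjusted p = 0.0033). The guide-wise fit, with a smaller estimate of the spread, called the fall in control cells too (adjusted p = 0.00115).

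**Figure D2:**
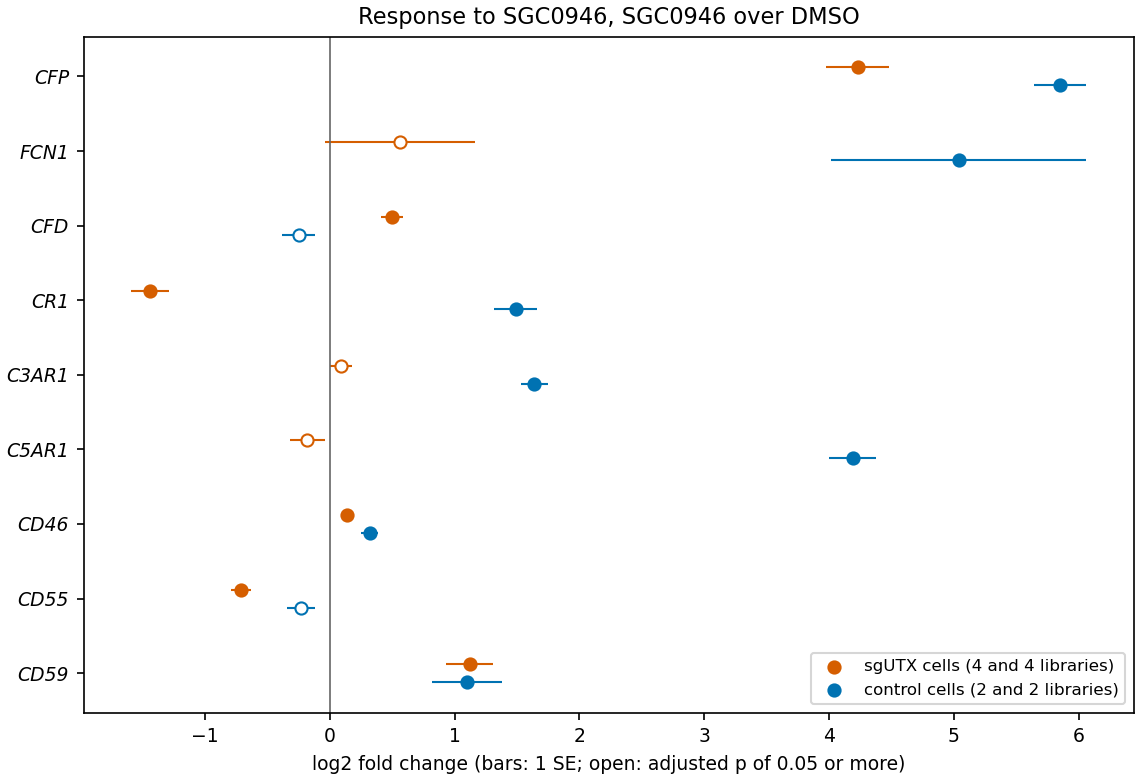
Log2 fold change (x axis) of each of the 9 genes (y axis) with SGC0946 over DMSO, in sgUTX cells and in control cells, with bars of 1 SE and open points where the adjusted p was 0.05 or more. C5AR1, FCN1 and C3AR1 moved by 4.19, 5.04 and 1.64 in control cells and stayed between -0.18 and 0.56 in sgUTX cells, and CR1 moved in opposite directions.

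CR1 (ENSG00000203710, chr1:207496147-207641765, plus strand) encodes complement receptor 1, or CD35, which binds C3b and C4b on targets and helps to inactivate them. With SGC0946 it had 5.16 and 4.4 CPM in sgUTX_4, 6.86 and 6.45 CPM in sgUTX_2 and 120 and 127 CPM in sgLuc libraries. With DMSO it had 13.3 and 12.7 CPM in sgUTX_4, 17.3 and 19 CPM in sgUTX_2 and 46.7 and 40.9 CPM in sgLuc libraries. The treated libraries lay above the DMSO ones in control cells and below them in sgUTX cells, with no overlap in either.

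SGC0946 raised CR1 2.82-fold in control cells (log2 fold change 1.49 ± 0.17 SE, adjusted p = 3.75e-06) and lowered it 2.71-fold in sgUTX cells (-1.44 ± 0.15, adjusted p = 4.38e-06). The difference of -2.93 ± 0.22 was called (adjusted p = 2.68e-07), and each guide alone gave a response of -1.45 on the log2 scale (adjusted p = 1.18e-10 for sgUTX_4 and 1.99e-12 for sgUTX_2). CR1 was 21.4-fold lower in sgUTX than in control cells with SGC0946 (-4.42 ± 0.15, adjusted p = 7.13e-12) and 2.8-fold lower with DMSO (-1.48 ± 0.15, adjusted p = 8.67e-07). An antisense gene, AL137789.1, covers 4.05% of the exonic bases of CR1. The counts of AL137789.1, like those of the close relative CR1L, were between 0 and 9 per library.

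C3AR1 (ENSG00000171860, chr12:8058302-8066471, minus strand) encodes the receptor of the fragment C3a. Its level with SGC0946 was 16.1 and 12.7 CPM in sgUTX_4, 13.1 and 13.1 CPM in sgUTX_2 and 85.4 and 76.8 CPM in sgLuc libraries. Its level with DMSO was 13.5 and 13.2 CPM in sgUTX_4, 11.7 and 13.2 CPM in sgUTX_2 and 27.1 and 24.9 CPM in sgLuc libraries. The sgUTX libraries with SGC0946 and with DMSO overlapped, while in control cells the treated ones lay well above the DMSO ones.

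SGC0946 raised C3AR1 3.11-fold in control cells (log2 fold change 1.64 ± 0.11 SE, adjusted p = 3.65e-11), and in sgUTX cells the log2 change of 0.09 ± 0.09 was not called (adjusted p = 0.463). The responses differed by -1.55 ± 0.14 (adjusted p = 2.18e-08). C3AR1 was 5.91-fold lower in sgUTX than in control cells with SGC0946 (-2.56 ± 0.09, adjusted p = 1.9e-16) and 2.02-fold lower with DMSO (-1.02 ± 0.10, adjusted p = 1.23e-08).

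C5AR1 (ENSG00000197405, chr19:47290023-47322066, plus strand) encodes CD88, the receptor through which C5a draws in and activates myeloid cells. In cells given SGC0946 it had 3.34 and 5.62 CPM in sgUTX_4, 4.81 and 4.72 CPM in sgUTX_2 and 56.4 and 60 CPM in sgLuc libraries. In cells given DMSO it had 4.47 and 5.29 CPM in sgUTX_4, 5.89 and 5.44 CPM in sgUTX_2 and 2.74 and 3.71 CPM in sgLuc libraries. The treated control libraries stood far above the other 10 libraries, and sgUTX libraries with SGC0946 and DMSO overlapped. With DMSO every sgUTX library lay above both control libraries.

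SGC0946 raised C5AR1 18.2-fold in control cells (log2 fold change 4.19 ± 0.19 SE, adjusted p = 3.53e-14), and in sgUTX cells the log2 change of -0.18 ± 0.14 was not called (adjusted p = 0.338). The difference of responses, -4.37 ± 0.24 (adjusted p = 5.18e-12), had the smallest adjusted p among the 9 genes. C5AR1 was 12.5-fold lower in sgUTX than in control cells with SGC0946 (-3.64 ± 0.13, adjusted p = 2.64e-16). With DMSO it was the only one of the 9 called higher in sgUTX cells (0.73 ± 0.20, adjusted p = 0.00308), and that call was lost without the first sgLuc library with DMSO (0.51, adjusted p = 0.103).

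The RefSeq sequences (GRCh38.p14) upstream of CFP, CR1 and C5AR1 are shown because these 3 genes had the lowest treated sgUTX to treated control ratios, a choice made after their values were seen. Each is 250 bases read 5′ to 3′ toward the RefSeq start nearest to the annotated 5′ end of the gene; that of C5AR1 lies inside the span GENCODE gives the gene. Capitals mark matches to TGTGGT, the core bound by RUNX factors, on either strand, where the opposite strand reads ACCACA.
CFP (chrX:47630306-47630555, minus strand): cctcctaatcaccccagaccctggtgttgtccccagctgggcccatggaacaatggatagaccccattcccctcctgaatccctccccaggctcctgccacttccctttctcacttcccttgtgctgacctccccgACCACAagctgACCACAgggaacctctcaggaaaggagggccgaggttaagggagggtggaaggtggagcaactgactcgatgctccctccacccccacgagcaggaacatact
CR1 (chr1:207495907-207496156, plus strand): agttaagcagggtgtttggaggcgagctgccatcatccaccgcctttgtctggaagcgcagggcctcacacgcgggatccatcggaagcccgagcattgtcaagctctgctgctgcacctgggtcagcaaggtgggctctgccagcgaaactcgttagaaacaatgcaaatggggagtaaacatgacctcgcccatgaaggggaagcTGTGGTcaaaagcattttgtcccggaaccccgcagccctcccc
C5AR1 (chr19:47309611-47309860, plus strand): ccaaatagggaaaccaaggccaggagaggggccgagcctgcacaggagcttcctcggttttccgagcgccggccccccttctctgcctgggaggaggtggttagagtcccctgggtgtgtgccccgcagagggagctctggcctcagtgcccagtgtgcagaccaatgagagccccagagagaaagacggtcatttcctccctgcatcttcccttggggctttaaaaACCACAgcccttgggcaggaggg
The motif stood 114 and 103 bases before the CFP start, 43 before the CR1 start and 23 before the C5AR1 start. It was found in 4 of the 9 windows, the other being that of CD55 at 117 bases, against 11% of 35116 RefSeq windows of the same length. Like that of C5AR1, the CD55 window lies inside the span GENCODE gives the gene. Of the other motifs searched on both strands, TGANTCA (AP-1) was found only upstream of C3AR1, 133 bases before its start, against 6.57% of all windows. GAGGAAGT (ETS, PU.1), TTNNGCAA (C/EBP), the IRF motif (GAAA, any 2 bases, GAAA) and ACGTG (hypoxia response) were in none of the 9 windows, against 2.17%, 9.05%, 3.02% and 18.5% of all windows. No position of the 6 motifs overlapped another in these windows, and a match describes the letters and not a bound site.

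The membrane regulators moved less than CFP, FCN1, CR1, C3AR1 and C5AR1 with SGC0946 in control cells, and between genotypes in either treatment. In sgUTX cells, with the guides pooled, CD59 and CD55 moved more with SGC0946 than FCN1, CFD, C3AR1 and C5AR1. CD46 (ENSG00000117335, chr1:207752057-207795513, plus strand) encodes the cofactor with which factor I inactivates C3b and C4b. With SGC0946 it had 204 and 184 CPM in sgUTX_4, 190 and 190 CPM in sgUTX_2 and 312 and 322 CPM in sgLuc libraries. With DMSO it had 190 and 164 CPM in sgUTX_4, 176 and 167 CPM in sgUTX_2 and 260 and 248 CPM in sgLuc libraries. The genotypes did not overlap in either treatment, and sgUTX libraries with SGC0946 and with DMSO overlapped.

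CD46 was 1.65-fold lower in sgUTX than in control cells with SGC0946 (log2 fold change -0.72 ± 0.06 SE, adjusted p = 1.24e-09) and 1.46-fold lower with DMSO (-0.54 ± 0.06, adjusted p = 1.2e-07). SGC0946 raised it by 0.32 ± 0.07 on the log2 scale in control cells (adjusted p = 0.00101). The rise of 0.14 ± 0.05 in sgUTX cells (adjusted p = 0.0422) was lost without any 1 of 10 of the 12 libraries (adjusted p from 0.0543 to 0.149), under RLE scaling (adjusted p = 0.0522) and for either guide alone (adjusted p = 0.142 for sgUTX_4 and 0.097 for sgUTX_2). The responses differed by -0.18 ± 0.09, which was not called (adjusted p = 0.134).

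CD55 (ENSG00000196352, chr1:207321376-207386804, plus strand), or decay-accelerating factor, takes apart the C3- and C5-cleaving enzymes. Its level with SGC0946 was 72.3 and 86.4 CPM in sgUTX_4, 87.7 and 90.6 CPM in sgUTX_2 and 167 and 171 CPM in sgLuc libraries. Its level with DMSO was 125 and 123 CPM in sgUTX_4, 155 and 147 CPM in sgUTX_2 and 197 and 200 CPM in sgLuc libraries. In either genotype the treated libraries lay below the DMSO ones, and in either treatment the sgUTX libraries lay below the control.

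CD55 was 2-fold lower in sgUTX than in control cells with SGC0946 (SE 0.09 on the log2 scale, adjusted p = 4.43e-08) and 1.44-fold lower with DMSO (-0.53 ± 0.09, adjusted p = 7.5e-05). SGC0946 lowered it in sgUTX cells (-0.71 ± 0.08, adjusted p = 1.35e-06), and the change in control cells of -0.23 ± 0.11 was not called (adjusted p = 0.0826; called in the guide-wise fit, adjusted p = 0.00373). The responses differed by -0.47 ± 0.13 (adjusted p = 0.00999). CD55, CR1 and CD46 lie in this order in a gene cluster on chromosome 1, and in control cells their log2 changes with SGC0946 were -0.23, 1.49 and 0.32.

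CD59 (ENSG00000085063, chr11:33703010-33736491, minus strand) encodes protectin, which blocks the pore formed by the last components. In cells given SGC0946 it had 30 and 26.8 CPM in sgUTX_4, 18.3 and 21.5 CPM in sgUTX_2 and 26.6 and 27.2 CPM in sgLuc libraries. In cells given DMSO it had 14.7 and 12.3 CPM in sgUTX_4, 8.01 and 9.56 CPM in sgUTX_2 and 13.3 and 11.7 CPM in sgLuc libraries. Every treated library lay above every DMSO one, and the sgUTX and control libraries overlapped within each treatment.

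SGC0946 raised CD59 2.17-fold in sgUTX cells (log2 fold change 1.12 ± 0.19 SE, adjusted p = 0.000988) and 2.15-fold in control cells (1.10 ± 0.28, adjusted p = 0.00713). The call in control cells was lost without the second sgLuc library with DMSO (1.01, adjusted p = 0.0573). The difference of responses was 0.02 ± 0.34 (adjusted p = 0.98). Between genotypes the log2 differences of -0.16 ± 0.22 with SGC0946 and -0.18 ± 0.26 with DMSO were not called (adjusted p = 0.563 and 0.576), and their sign turned to positive under library-size scaling (0.02 and 0.09). With a mean per guide, CD59 was lower in sgUTX_2 than in sgLuc cells (-0.43 with SGC0946, adjusted p = 0.00168, and -0.51 with DMSO, adjusted p = 0.00227), and was not called in sgUTX_4 cells (0.08 and 0.11, adjusted p = 0.593 and 0.525). CD59 shares 6.07% of its exonic bases with AL049629.2, a gene on the same strand.

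**Figure D3:**
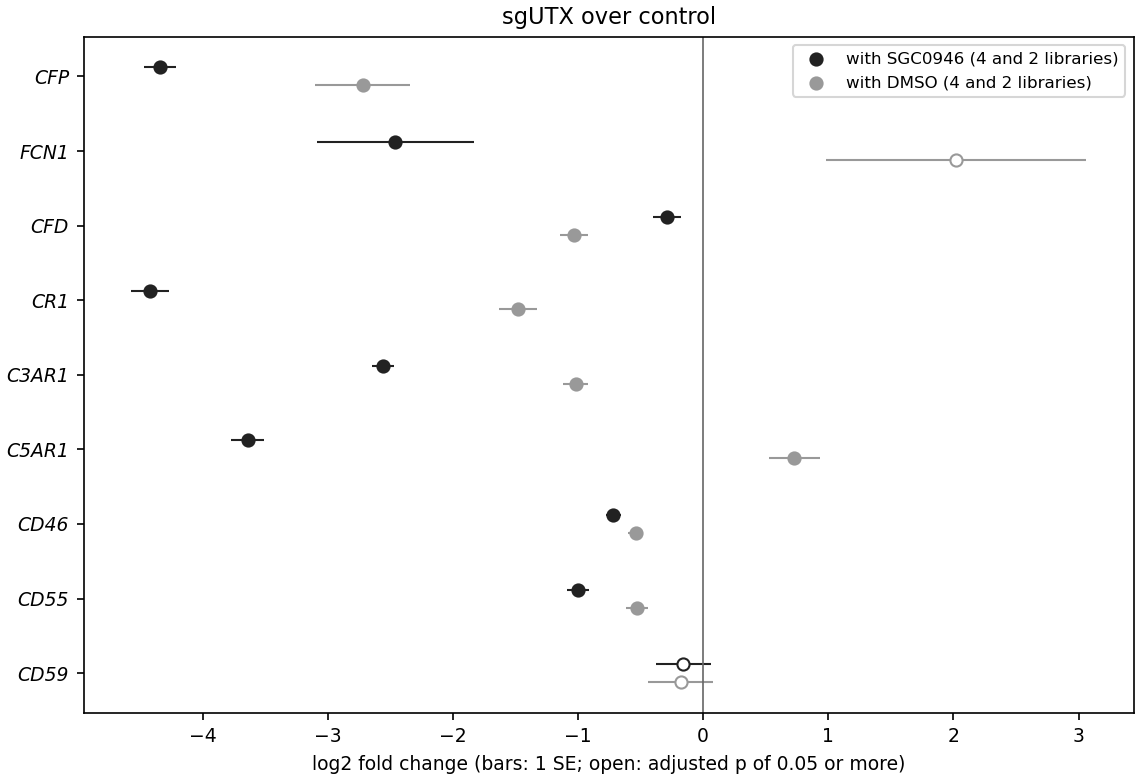
Log2 fold change (x axis) of each of the 9 genes (y axis) in sgUTX over control cells, with SGC0946 and with DMSO, with bars of 1 SE and open points where the adjusted p was 0.05 or more. With SGC0946 the values run from -4.42 for CR1 to -0.16 for CD59, and with DMSO FCN1 and C5AR1 lay above 0.

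The guides against KDM6A were compared in the fit with 6 group means. With SGC0946, 3 of the 9 genes differed between sgUTX_4 and sgUTX_2, where 3.01% of all genes were called (1.61% higher and 1.4% lower), and all 3 were higher in sgUTX_4. FCN1 was 2.82-fold higher in sgUTX_4 (log2 fold change 1.50 ± 0.13 SE, adjusted p = 1.62e-07), CFP differed by 0.64 ± 0.13 (adjusted p = 0.00436) and CD59 by 0.51 ± 0.11 (adjusted p = 0.00833). With DMSO, 5 of the 9 differed, where 3.49% of all genes were called (1.72% higher and 1.77% lower). FCN1 was 4.15-fold higher in sgUTX_4 (2.05 ± 0.15, adjusted p = 1.13e-08), and CFD (0.41 ± 0.06, adjusted p = 7.91e-05) and CD59 (0.61 ± 0.14, adjusted p = 0.00676) were higher too. CR1 (-0.48 ± 0.11, adjusted p = 0.00741) and CD55 (-0.28 ± 0.07, adjusted p = 0.0132) were lower in sgUTX_4.

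Each guide was also set against sgLuc, and each guide's response to SGC0946 was fitted on its own. With SGC0946, sgUTX_4 had 8 of the 9 lower and none higher than sgLuc, where 29% of all genes were lower and 27.3% higher, and sgUTX_2 had 9 lower and none higher, where 29.1% were lower and 27.3% higher. With DMSO, sgUTX_4 had 6 lower and 2 higher, where 31.2% of all genes were lower and 28.5% higher, and sgUTX_2 had 7 lower and 2 higher, where 32.2% were lower and 28.2% higher. SGC0946 raised 4 and lowered 2 in sgUTX_4 cells, where 13.9% of all genes were higher and 12.5% lower, and the counts in sgUTX_2 cells were again 4 and 2, where 14.1% were higher and 13.7% lower. FCN1 and C5AR1 were the 2 genes higher than sgLuc with either guide in DMSO.

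FCN1 was called in both treatments whichever single library was left out. The count in SGC0946 fell to 1 without the first sgUTX_4 or the first sgUTX_2 library with SGC0946, and the count in DMSO fell to 2 without the first sgUTX_4 library with DMSO and to 3 without the first sgUTX_2 library. Most other calls were lost when 1 library was left out. Without the first sgUTX_4 library of the treatment, the adjusted p was 0.0529 for CFP and 0.243 for CD59 with SGC0946, and 0.0743 for CR1, 0.12 for CD55 and 0.283 for CD59 with DMSO. Without the first sgUTX_2 library it was 0.13 for CFP and 0.232 for CD59 with SGC0946, and 0.077 for CD55 and 0.0808 for CD59 with DMSO. CR1 was also lost without the second sgUTX_2 library with DMSO (adjusted p = 0.0958) and CD55 without the second sgUTX_4 library (adjusted p = 0.0594), while CFD with DMSO was called in every case. Over all genes, 454 were called in SGC0946, against 90 without the first sgUTX_4 library, 107 without the first and 283 without the second sgUTX_2 library. In DMSO 526 were called, against 88 without the first sgUTX_4 and 282 without the second sgUTX_2 library. The difference between the guides in their response to SGC0946, a contrast added after the values were seen, was called for none of the 9 (FCN1 -0.55 ± 0.20, adjusted p = 0.569; 2 of the 9 had an unadjusted p under 0.05, and 0.0664% of all genes were called).

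**Figure D4:**
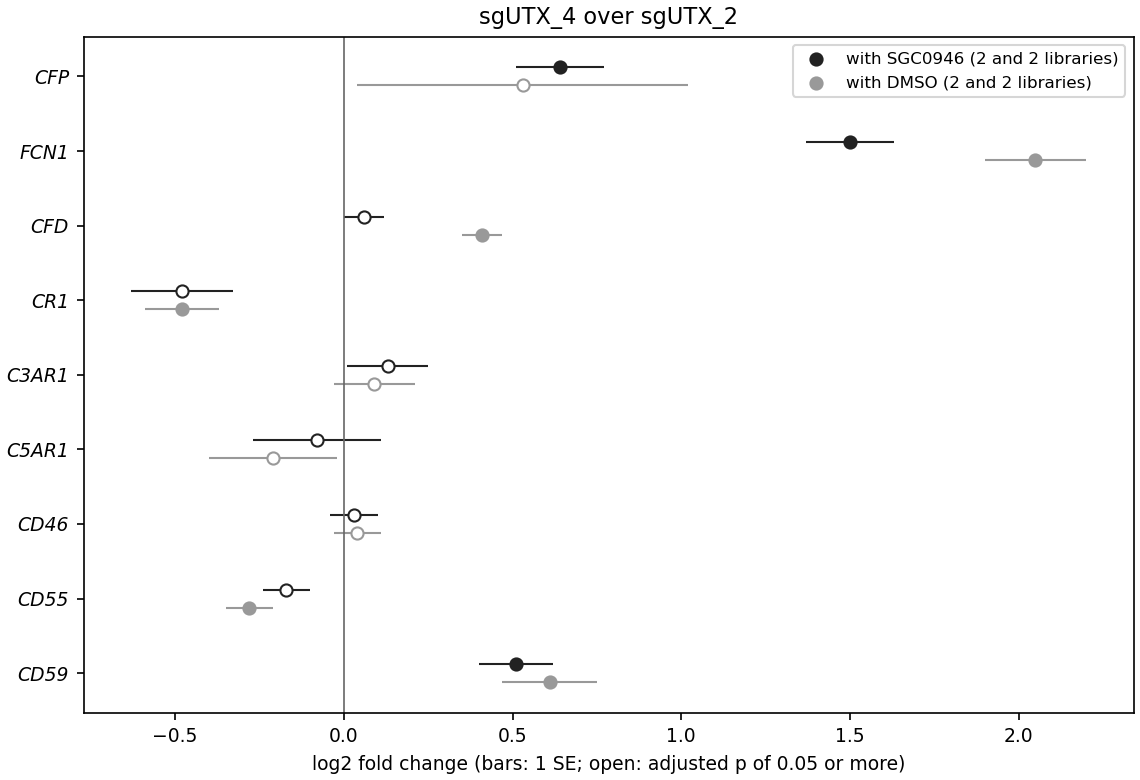
Log2 fold change (x axis) of each of the 9 genes (y axis) in sgUTX_4 over sgUTX_2 cells, with SGC0946 and with DMSO, with bars of 1 SE and open points where the adjusted p was 0.05 or more. FCN1 stands farthest from 0, at 1.50 and 2.05.

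Of 39 other complement genes on a list of pathway members, 15 passed the filter on low counts, among them 6 of 7 further receptors. In the same 15, sgUTX cells had 11 lower and 1 higher than control cells with SGC0946, and 8 lower and 1 higher with DMSO. Of all genes tested, 29.3% were lower and 27.7% higher with SGC0946, and 32.3% lower and 28.7% higher with DMSO. SGC0946 raised 9 of the 15 and lowered none in sgUTX cells, where 17.4% of all genes were higher and 16.4% lower, and with sgUTX_2 alone it raised 5. It raised 9 and lowered 1 in control cells, where 24.7% of all genes were higher and 24.2% lower. The median log2 fold changes of the 15 in that order of comparisons were -1.91, -1.17, 0.85 and 1.11.

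The receptor subunits ITGAM and ITGAX, which pair with ITGB2 to form the iC3b receptors CR3 and CR4, were called in all 4 comparisons. ITGAM averaged 14.9 CPM in sgUTX and 203 CPM in control cells with SGC0946 (log2 fold change -3.78 ± 0.18 SE, adjusted p = 1.4e-08), and 2.02 CPM in sgUTX and 6.18 CPM in control cells with DMSO (-1.62 ± 0.34, adjusted p = 0.00178). It is also 1 of the 12 monocyte markers. ITGAX averaged 11.5 CPM in sgUTX and 87.9 CPM in control cells with DMSO (-2.92 ± 0.22, adjusted p = 2.64e-06). ITGB2 rose with SGC0946 in sgUTX cells to 496 CPM, against 256 CPM with DMSO (0.95 ± 0.11, adjusted p = 3.71e-05).

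C3, the central component, averaged 3.94 CPM in sgUTX and 52.3 CPM in control cells with SGC0946 (-3.74 ± 0.13, adjusted p = 8.29e-17), and 2.3 CPM in sgUTX and 9.09 CPM in control cells with DMSO (-1.96 ± 0.17, adjusted p = 6.61e-10). Its responses to SGC0946 differed by -1.77 ± 0.22 (adjusted p = 1.43e-06). C5AR2, the other C5a receptor, averaged 1.89 CPM in sgUTX and 17.8 CPM in control cells with SGC0946 (-3.24 ± 0.20, adjusted p = 3.88e-12). With DMSO it was lower, at 1.04 CPM in sgUTX and 4.66 CPM in control cells (-2.15 ± 0.26, adjusted p = 1.69e-07), where C5AR1 was higher. C5 itself was 1.72 CPM in sgUTX and 9.94 CPM in control cells with DMSO (-2.50 ± 0.22, adjusted p = 1.34e-09), and its responses to SGC0946 differed by 1.20 ± 0.31 (adjusted p = 0.00473).

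Several others were near the limit of counting. C2, a classical-pathway protease, averaged 0.164 CPM in sgUTX and 2.07 CPM in control cells with SGC0946 (-3.59 ± 0.54, adjusted p = 5.32e-06), and it shares 32.88% of its exonic bases with AL645922.1. The C3b receptor VSIG4 averaged 0.141 CPM in sgUTX and 1.05 CPM in control cells with SGC0946 (-2.83 ± 0.65, adjusted p = 0.000681). SERPING1, the C1 inhibitor, averaged 0.75 CPM with SGC0946 and 0.107 CPM with DMSO in control cells (2.79 ± 0.91, adjusted p = 0.0141). C4BPA, a C4b-binding regulator, averaged 0.626 CPM with SGC0946 and 0.267 CPM with DMSO in sgUTX cells (1.22 ± 0.44, adjusted p = 0.0366). C1RL, a C1r-like protease that shares 13.4% of its exonic bases with C1R, and CD93 were called in all 4 comparisons as well, and C1QBP, a C1q-binding protein, was the 1 gene called higher in sgUTX cells in both treatments (log2 fold change 0.70 with SGC0946 and 0.42 with DMSO). C4A, whose reads cannot be separated safely from those of its near-identical copy C4B, and MASP2, a lectin-pathway protease, were called in none of the 4.

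**Figure D5:**
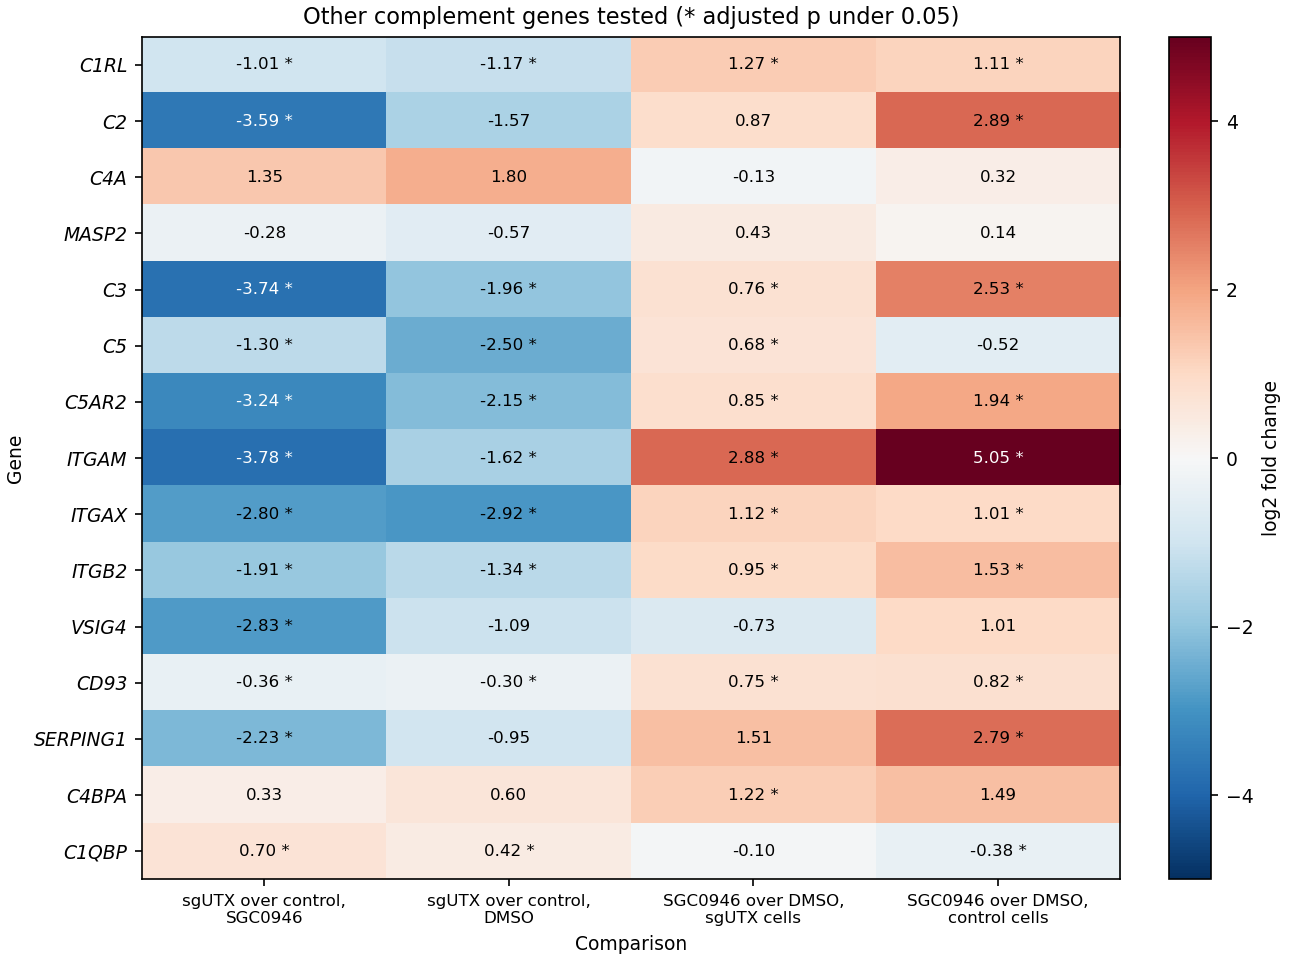
Log2 fold change of the 15 other complement genes tested (rows) in 4 comparisons (columns), with a star where the adjusted p was under 0.05; red is higher and blue lower in the group named first. ITGAM, C3, C2 and C5AR2 have the lowest values with SGC0946, between -3.78 and -3.24.

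Over the 12 libraries, the genes whose log2 CPM followed each member most closely were found by Pearson's r, as a description, since the libraries fall into 6 groups and share them. For CFP they were CTSZ (r = 0.997) and ITGAM (0.996), for C3AR1 SLAMF7 (0.990) and CTSS (0.988), and for CR1 PLAUR (0.986) and ERBIN (0.983). For C5AR1 they were MAP3K2 and NCF1 (0.983 each), and for FCN1 VOPP1 (0.980) and TANK (0.952). For CFD they were PSRC1 (0.982) and KIF20A (0.980), for CD46 AC245128.3 (0.990) and RETREG3 (0.989), for CD55 VPS37A (0.982) and GPR132 (0.975), and for CD59 TRGC2 (0.977) and COL17A1 (0.975). No gene was named as most alike by 2 members.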

How the data were processed

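RNA-seq libraries of OCI-AML2 cells were read as pairs of 150 bases, per the labels' protocols. The deposited values are raw counts per gene, not normalized, made by the authors with STAR 2.5.1b and the genome build hg19, per the submitters' processing notes. The 58735 identifiers match GENCODE 29, which annotates GRCh38. Which build lies behind the counts is therefore uncertain, and gene positions follow GENCODE 29. The sources used here name neither the counting program nor its use of strand, so reads shared by overlapping genes could not be separated.

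The 9 genes and the gene lists were chosen with earlier results of these data known. Tests were two-sided quasi-likelihood F-tests (robust) of edgeR 4.0.16, with limma 3.58.1 under R 4.3.3, after TMM scaling and the filterByExpr filter, with Benjamini-Hochberg adjustment over all 15060 genes kept. All 12 libraries were fitted in 4 arms, in which the guides count as replicates of 1 genotype (8 residual degrees of freedom, common coefficient of variation 0.0775). A fit of 6 groups compared the guides (6 degrees of freedom, 0.057). Standard errors are the log2 fold change over the root of F. CPM divide counts by TMM-scaled library sizes, and RPKM also by exonic length. Adjusted p-values of single genes come from edgeR except where DESeq2 is named. Other complement genes were named where they were among the 5 with the largest called change with at least 3 counts in each arm, or called in all of the first 4 comparisons; likeness names the 2 genes of highest r (log2 CPM, prior count 2). In simulated counts where few genes changed, the tests recovered most of the known changes. Far more genes were called in these data, and no difference of responses was simulated, so that check does not cover the present setting. Alternatives were RLE scaling, library size only, no filter, DESeq2 1.42.0, each library left out, each guide alone, the 6-group fit and a replicate block.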

Additional observations from a re-analysis of the deposited data

Results flagged for a closer look

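In 2 of the 18 sets of 4 libraries checked (9 genes in sgUTX cells with each treatment), 1 library lay apart from the other 3, by a gap of at least 0.829 of the whole range. Chance gives such a gap in about 1 of 20 sets. C3AR1 was higher in the first sgUTX_4 library with SGC0946 (16.1 CPM, the others from 12.7 to 13.1; gap 0.852 of the range on the log2 scale). C3AR1 was lower in the first sgUTX_2 library with DMSO (11.7 CPM, the others from 13.2 to 13.5; gap 0.834).

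The response to SGC0946 differed between sgUTX and control cells, on the log2 scale, by -1.62 for CFP, -4.48 for FCN1, 0.74 for CFD, -2.93 for CR1, -1.55 for C3AR1, -4.37 for C5AR1 and -0.47 for CD55. Each difference was tested as an interaction in edgeR, and each was negative except that of CFD.

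The guides against KDM6A differed, sgUTX_4 minus sgUTX_2, with SGC0946 by 1.50 for FCN1, 0.64 for CFP and 0.51 for CD59. With DMSO they differed by 2.05 for FCN1, 0.61 for CD59, 0.41 for CFD, -0.48 for CR1 and -0.28 for CD55.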

How the results depend on the processing

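The counts of members called kept within 1.5 times their values under RLE scaling, library size only, no filter, DESeq2 and the 6-group fit. The number of other complement genes called for SGC0946 in sgUTX cells was 5 with sgUTX_2 alone, against 9. With 1 library left out, the members that differed between guides ranged from 2 to 5 with DMSO and from 1 to 4 with SGC0946. All genes that differed between guides ranged from 88 to 682 and from 90 to 608, and the other complement genes from 1 to 3 with DMSO and from 3 to 6 for the difference of responses. Signs that turned were those of small, uncalled values: CD59 between genotypes was 0.09 with DMSO and 0.02 with SGC0946 under library size only, and 0.11 and 0.08 with sgUTX_4 alone. The CD59 difference of responses was -0.01 with RLE, -0.07 with library size only, -0.04 with no filter, -0.02 with DESeq2 and -0.03 with sgUTX_4 alone, and ranged from -0.11 to 0.17 with 1 library left out. Left-out libraries also turned signs between guides for CD46 (-0.07 to 0.15 with DMSO and -0.04 to 0.10 with SGC0946), C3AR1 (-0.05 to 0.30 with SGC0946) and C5AR1 (-0.51 to 0.24 with SGC0946). The cause was not tested.

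Libraries with the same replicate number did not deviate together (correlations of the deviations from -0.11 to 0.07 over the 15 pairs of groups). This cannot show whether libraries with the same number were handled together. A replicate block left the counts of members called in all comparisons as they were, except 7 in place of 8 for sgUTX against control in SGC0946, where CFD had an adjusted p of 0.0583. About 6 to 10 reads per sgUTX library limit the CFP levels with DMSO.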
